A study of Mus musculus with 84 samples.

Results

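The genes described are those of the 4 mouse Hox clusters, chosen by symbol alone as every row of the count table named Hox, a cluster letter and a number. The rule found 37 of 18909 genes, 11 in HoxA, 10 in HoxB, 7 in HoxC and 9 in HoxD. Hoxc11 and Hoxc12 were not analysed here. Expression was measured with STRT RNA-seq, which tags the 5′ ends of transcripts, in MEFs, ESCs and reprogramming cells, with 3 biological replicates in each of 10 groups. MEFs were wild-type 129 fibroblasts, grown in serum medium with FGF2 and heparin. ESCs were the TNG MKOS line, in which doxycycline switches on the 4 reprogramming factors (MKOS) together with mOrange, and in which a Nanog-GFP reporter disrupts 1 Nanog allele. Reprogramming cells were TNG MKOS MEFs from chimeric embryos, grown with wild-type MEFs in ESC medium with LIF, vitamin C and 300 ng/ml doxycycline, infected with a retrovirus for a blue fluorescent protein (Cont) or for constitutively active Smad3 (+Sm3CA), and sorted for mOrange on day 3, 6, 8 or 10. No sample of these transgenic MEFs before doxycycline was among those analysed, so the stock of fibroblasts, the medium, the infection, the sort and MKOS cannot be told apart in any comparison with MEFs.

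Hox genes encode homeodomain transcription factors that give cells their position along the head-to-tail axis and, in the limb, along the limb. They lie in 4 clusters in the order in which they are used, so that genes of low number act toward the head and genes of high number toward the tail and the limb tip. Fibroblasts keep the Hox pattern of their site of origin in culture, whereas the clusters are held silent in ESCs by Polycomb.

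The clusters lie on chromosome 6 (HoxA, chr6:52155590-52260880), chromosome 11 (HoxB, chr11:96194316-96368256), chromosome 15 (HoxC, chr15:102921103-103036852) and chromosome 2 (HoxD, chr2:74668310-74765142) of GRCm38. In this annotation 11 of the 37 genes overlap another member on the same strand, among them Hoxa3 with Hoxa4, Hoxa5 and Hoxa6, Hoxd3 with Hoxd4, and Hoxc5 with Hoxc6, Hoxc8, Hoxc9 and Hoxc10, and Hoxa11 overlaps the antisense gene Hoxa11os. These overlaps are of whole gene spans, introns included, and whether exons are shared was not examined. How reads in shared stretches were assigned is not given in the sources used here, so values of these genes are uncertain to that extent.

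Promoters of 4 members are shown. Hoxa9 was the member of HoxA called higher from day 3 to day 10. Its neighbour Hoxa10, and Hoxa5 and Hoxb4, were called lower on day 3 of Cont than in MEFs. Each promoter is the 250 bases before the RefSeq start (GRCm38), 5′ to 3′ on the strand of the gene, and overlaps no annotated exon. Hoxa10 has another RefSeq start, and the 250 bases before it (chr6:52240855-52241104, not printed) hold neither box. Capitals mark a TATA box (TATAAA) or a CCAAT box (CCAAT) on either strand.
Hoxa9, minus strand of chr6:52227371-52227620: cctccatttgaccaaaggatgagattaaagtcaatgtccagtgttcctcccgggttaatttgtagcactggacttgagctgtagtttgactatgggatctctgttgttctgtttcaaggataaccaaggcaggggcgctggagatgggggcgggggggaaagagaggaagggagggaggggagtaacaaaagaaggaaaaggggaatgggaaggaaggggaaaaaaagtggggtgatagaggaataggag
Hoxa10, minus strand of chr6:52234940-52235189: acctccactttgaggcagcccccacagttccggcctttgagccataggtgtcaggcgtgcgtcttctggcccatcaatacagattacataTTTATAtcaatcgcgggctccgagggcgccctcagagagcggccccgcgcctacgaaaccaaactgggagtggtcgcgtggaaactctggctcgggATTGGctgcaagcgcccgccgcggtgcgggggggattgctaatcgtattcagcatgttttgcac
Hoxa5, minus strand of chr6:52204588-52204837: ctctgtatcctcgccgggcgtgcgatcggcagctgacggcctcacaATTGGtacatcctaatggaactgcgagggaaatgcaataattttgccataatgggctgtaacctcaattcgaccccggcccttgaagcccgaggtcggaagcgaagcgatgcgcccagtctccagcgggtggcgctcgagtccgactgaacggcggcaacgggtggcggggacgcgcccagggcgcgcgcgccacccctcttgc
Hoxb4, plus strand of chr11:96318017-96318266: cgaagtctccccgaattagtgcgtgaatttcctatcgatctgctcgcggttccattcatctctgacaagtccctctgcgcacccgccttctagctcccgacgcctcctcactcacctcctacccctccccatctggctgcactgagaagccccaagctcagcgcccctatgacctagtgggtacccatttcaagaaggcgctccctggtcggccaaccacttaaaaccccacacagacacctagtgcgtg

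RefSeq promoters were matched for 22 of the 37 members, with 24 entries, and Hoxb7, Hoxb9 and Hoxc8 had none. A CCAAT box was in 58.3% of the Hox entries and in 33.8% of all 32851 promoters, and a TATA box in 16.7% and 12.4%. An E-box (CACGTG) was in 16.7% of Hox entries and 6.02% of all, the letters ACAAAG of SOX factors in 20.8% and 16.5%, TAATTA in 8.33% and 4.84%, and CCACACCC in 4.17% and 3.20%. The Hox entries with an E-box were of Hoxd1, Hoxd10, Hoxd11 and Hoxd13, all in HoxD, and those with TAATTA were 2, both of Hoxd11. Most of the 24 entries were of HoxA or HoxD, so HoxB and HoxC are little covered. The octamer ATGCAAAT was in 0 of the 24 Hox entries and in 1.60% of all promoters. The median GC content of these stretches was 58.6% in Hox entries and 52.4% in all promoters.

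The 30 libraries held 1008596 to 2296059 reads, with a median of 1602511, and no library was left out. Values below are normalized counts, which are reads divided by the DESeq2 size factor of the library, so that 1 normalized count is close to 1 read in a library of middle depth. They count reads and not molecules. Smad3, which the vector adds to the endogenous gene, was at 5.19 to 25.4 normalized counts in Cont and at 32.8 to 184 in +Sm3CA, without overlap. Of 8 pluripotency markers, all 8 were called higher in ESCs than in MEFs. Of 10 fibroblast markers, 8 were tested in that comparison and all 8 were called lower.

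Hox genes were broadly present in MEFs and nearly absent in ESCs. Of the 37 members, 31 had a read in MEFs and 4 in ESCs, and 36 had a read in any of the 30 libraries. Only Hoxb1, a gene of the hindbrain, had none. The summed Hox level was 266, 284 and 341 normalized counts in the 3 MEF libraries and 8.22, 10.8 and 6.43 in the 3 ESC libraries, and the groups did not overlap. On day 3 it was 96.3, 83.0 and 121 in Cont and 99.8, 88.1 and 112 in +Sm3CA, which is 33.7% and 33.6% of the MEF mean. By day 10 it was 212, 173 and 162 in Cont and 174, 154 and 141 in +Sm3CA, or 61.5% and 52.6% of the MEF mean. Every day 10 library lay above every day 3 library and below every MEF library. In bulk samples, fewer cells that express a gene and less RNA per cell cannot be told apart.

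**Figure D1:**
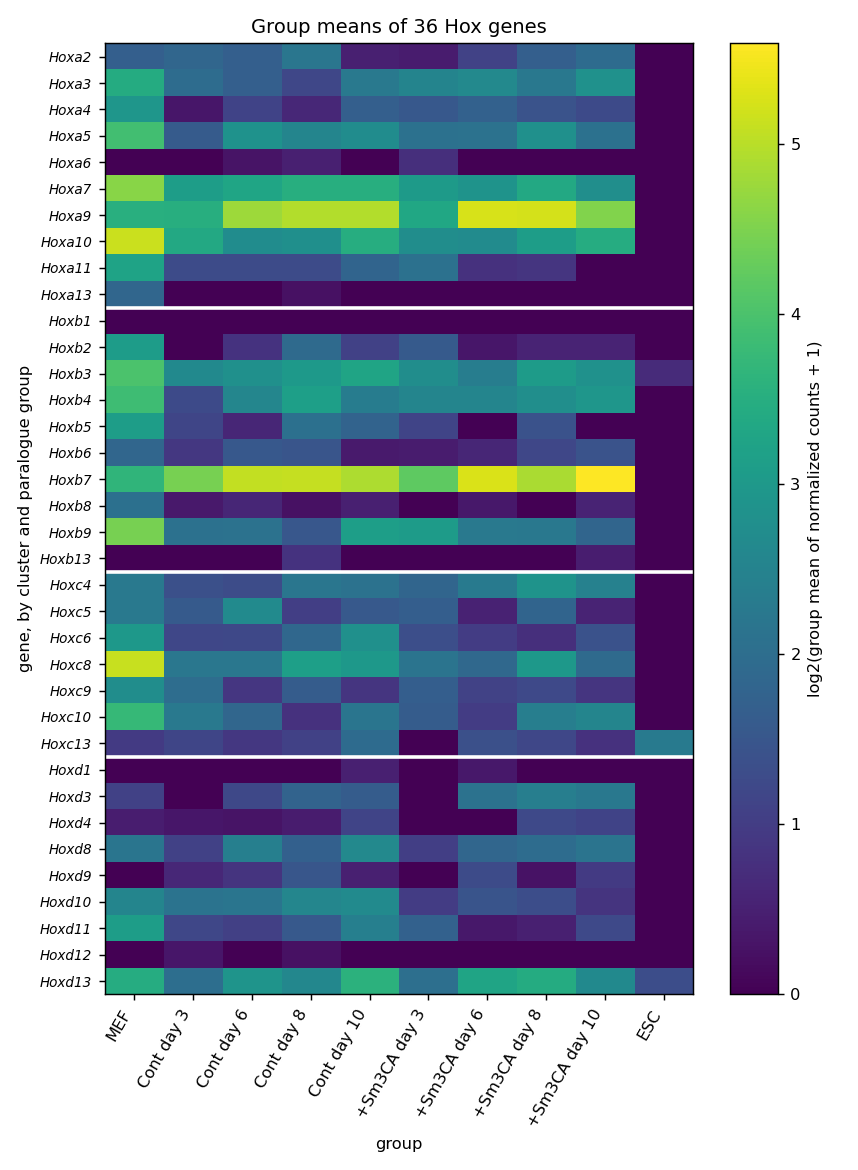
Group means of 36 of the 37 Hox genes in each of the 10 groups, as log2(mean normalized count + 1), with the genes in cluster order from HoxA at the top to HoxD. Hoxc8, Hoxa10 and Hoxa7 are brightest in the MEF column and dark in the ESC column, while Hoxa9 and Hoxb7 are brightest in the reprogramming columns; colours are to be compared along a row.

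The sums of the 4 clusters are given here without a test. HoxC held 59.99, 77.1 and 64.8 normalized counts in MEFs, 16.9, 15.6 and 17.1 on day 3 of Cont and 21.0, 28.7 and 26.4 on day 10. HoxD, the cluster of the distal limb genes, held 25.6, 27.1 and 29.4 in MEFs, 4.46, 9.08 and 16.3 on day 3 of Cont and 46.9, 21.5 and 21.7 on day 10. Day 10 of HoxC thus stayed below all MEF libraries, and day 10 of HoxD lay on both sides of them, with replicate 1 alone above. In +Sm3CA both stayed below all MEF libraries on day 10, HoxC at 18.2, 24.03 and 5.21 and HoxD at 19.6, 16.4 and 14.3. HoxA and HoxB were at 73.5 ± 4.89 and 53.7 ± 10.8 on day 10 of Cont against 120 ± 43.1 and 82.0 ± 8.00 in MEFs (mean ± SD, n = 3). The third MEF library was high in HoxA, at 169 against 102 and 89.0. As a share of the MEF mean, day 10 of Cont ran from HoxC at 37.7% through HoxA at 61.1% and HoxB at 65.5% to HoxD at 110%, and day 10 of +Sm3CA from HoxC at 23.5% through HoxA at 48.2% and HoxD at 61.3% to HoxB at 80.0%. Without Hoxa9 the HoxA share was 39.7% in Cont and 32.6% in +Sm3CA, and without Hoxb7 the HoxB share was 35.3% and 26.1%.

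The share of 2 genes in the Hox sum was larger in reprogramming cells than in MEFs. Hoxa9, a posterior factor known for its part in blood progenitors and leukaemia, and Hoxb7, a trunk-level factor, made up 5.73% to 8.37% of the Hox sum in MEFs, 21.5% to 35.8% on day 3 and 28.3% to 49.2% from day 6 to day 10. Without these 2, the sum of the other 35 genes was 275 ± 35.2 in MEFs, 68.9 ± 14.6 and 124 ± 16.0 on days 3 and 10 of Cont, and 73.5 ± 15.1 and 86.7 ± 12.3 on days 3 and 10 of +Sm3CA (mean ± SD, n = 3). These 2 genes were chosen for this sum after their values were seen.

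**Figure D2:**
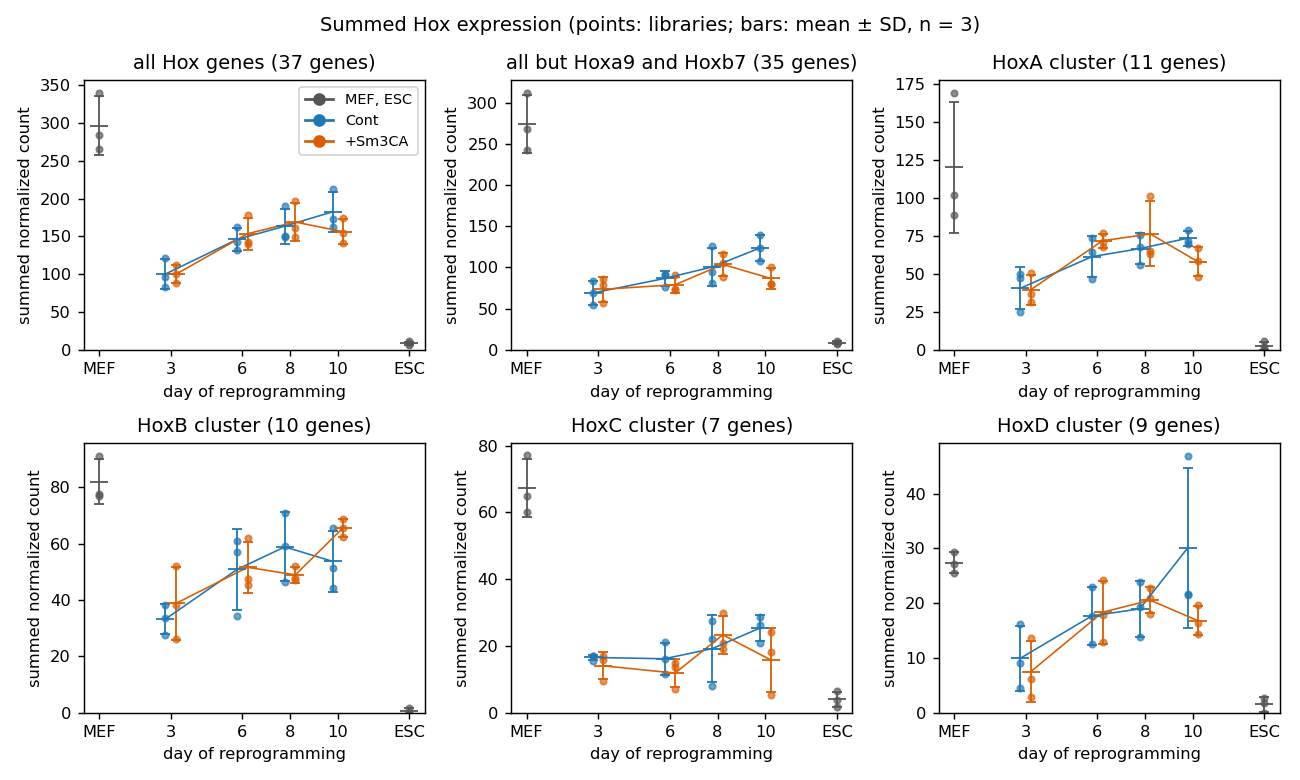
Summed normalized counts (y axis) of all 37 Hox genes, of the 35 genes without Hoxa9 and Hoxb7, and of each cluster, by day of reprogramming with MEFs and ESCs at the ends (x axis); points are libraries and bars the mean ± SD of 3. All Hox sums of day 3 lie between 83.0 and 121, below the MEF libraries at 266 to 341 and above the ESC libraries at 6.43 to 10.8.

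The first comparison asked which Hox genes separate fibroblasts from pluripotent cells. Of the 37, 7 had enough reads to be tested, and all 7 were called lower in ESCs (edgeR, quasi-likelihood, p adjusted by Benjamini-Hochberg over 8798 genes, under 0.05), beside 28.8% of all genes called lower and 23.5% called higher. Hoxc8, a thoracic-level factor, was at 31.1, 36.9 and 33.7 normalized counts in MEFs and had 0 reads in ESCs, so that it was at least 27.4-fold lower (3 reads over the group, adjusted p = 1.56e-05). Hoxa10, a factor of the posterior trunk and reproductive tract, was at 22.2, 28.2 and 52.7 and at least 27.8-fold lower (adjusted p = 3.31e-05). Hoxa7, Hoxb9, Hoxb4 and Hoxb7 had no ESC read either and were at least 18.9-, 16.7-, 10.9- and 9.37-fold lower. Hoxb3 had 1 read in ESCs, a ratio of 35.8 with a 95% counting interval of 6.11 to 1447. With 0 reads in ESCs, a group mean of up to 1.24 normalized counts remains possible, for counting error only.

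Hoxb3, Hoxc13 and Hoxd13 were among the members with a read in ESCs. Hoxc13, a factor of hair follicles, had 4, 1 and 5 reads in ESCs and 1, 0 and 2 in MEFs, a ratio of 4.09 with a counting interval of 1.05 to 23.1. It was the member with a higher mean in ESCs than in MEFs, and it was too low to be tested. Genes of paralogue groups 5 to 8 had 0 reads in the 3 ESC libraries together and 328 in MEFs.

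The second comparison set day 3 of reprogramming against MEFs. In Cont, 6 of 11 tested members were called lower and 1 higher, beside 20.9% and 22.6% of all 10979 genes. In +Sm3CA, 3 of the same 11 were called lower and 0 higher, beside 20.7% and 22.4%. Both comparisons share the MEF libraries. The median log2 fold change of the 11 was -1.53 in Cont and -1.38 in +Sm3CA, and that of all genes was 0.00 in both.

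3 members were called lower in both series. Hoxc8 was at 3.57, 2.59 and 4.88 normalized counts on day 3 of Cont and 8.44, 0.927 and 1.04 in +Sm3CA, all below the MEF libraries. Its log2 fold change was -3.003 ± 0.64 in Cont and -3.03 ± 0.63 in +Sm3CA (estimate ± SE, adjusted p = 0.000161 and 0.000126). Hoxa10 was at 8.91, 3.89 and 15.4 in Cont and 6.91, 2.78 and 7.30 in +Sm3CA, again without overlap with MEFs, and its log2 fold change was -1.69 ± 0.50 in Cont (adjusted p = 0.00533) and -2.47 ± 0.53 in +Sm3CA (adjusted p = 0.000208). Hoxa7, the neighbour of Hoxa9 on the other side, was at 33.3, 19.5 and 17.3 in MEFs, 12.5, 3.89 and 6.50 in Cont and 6.91, 7.42 and 7.30 in +Sm3CA. The log2 fold change was -1.43 ± 0.54 in Cont (adjusted p = 0.0262) and -1.56 ± 0.54 in +Sm3CA (adjusted p = 0.0163). Without MEF replicate 3 the call of Hoxa10 in Cont was lost (-1.22), and without MEF replicate 1 those of Hoxa7 were lost in Cont (-1.15) and +Sm3CA (-1.28). The call of Hoxa7 in Cont was also lost without Cont day 3 replicate 2 (-1.19) or replicate 3 (-1.35).

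Hoxb4, a factor known from blood stem cells, Hoxb9, a thoracic-level factor, and Hoxa5, a factor of the cervical and lung region, were called lower in Cont and did not pass in +Sm3CA. Hoxb4 was tightly spread in MEFs at 13.3, 14.1 and 12.96 and stood at 0.891, 0 and 3.25 in Cont and 5.37, 1.85 and 7.30 in +Sm3CA. The log2 fold change was -2.90 ± 0.79 in Cont (adjusted p = 0.00218) and -1.34 ± 0.66 in +Sm3CA (adjusted p = 0.0918). Hoxb9 was at 23.3, 11.9 and 26.8 in MEFs, 4.46, 1.30 and 4.06 in Cont and 6.91, 3.71 and 11.5 in +Sm3CA, with -2.44 ± 0.69 (adjusted p = 0.00351) and -1.38 ± 0.62 (adjusted p = 0.0669). Hoxa5 was at 5.55, 13.03 and 23.3 in MEFs and 4.46, 0 and 1.63 in Cont, with -2.52 ± 0.89 (adjusted p = 0.0171), and that call was lost without MEF replicate 3 (-1.90), Cont day 3 replicate 2 (-2.11) or Cont day 3 replicate 3 (-2.38). In +Sm3CA Hoxa5 was at 6.91, 1.85 and 1.04, with -1.89 ± 0.82 (adjusted p = 0.054), so that 1 library overlapped the MEFs. Hoxa5 and Hoxb9 lay near the threshold in +Sm3CA. DESeq2 size factors and the DESeq2 Wald test called both Hoxa5 (adjusted p = 0.0404 and 0.0485) and Hoxb9 (adjusted p = 0.046 and 0.0433) lower, as did the edgeR fit without the filter for Hoxa5 (adjusted p = 0.0355) and with the compared groups only for Hoxb9 (adjusted p = 0.0278). A difference between the vectors on day 3 was tested for Hoxb4, with 1.55 ± 0.88 (adjusted p = 0.962), whereas Hoxb9 and Hoxa5 were below the filter of that comparison. Without the filter edgeR called 0 of 36 members in it, with 1 at an unadjusted p under 0.05.

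Hoxb7 went the other way. It was at 13.3, 11.9 and 9.51 in MEFs, 21.4, 20.8 and 20.3 on day 3 of Cont and 10.7, 21.3 and 19.8 in +Sm3CA. The Cont libraries lay above the MEF libraries, and those of +Sm3CA overlapped them. The log2 fold change was 0.97 ± 0.37 in Cont (adjusted p = 0.0292) and 0.68 ± 0.38 in +Sm3CA (adjusted p = 0.142). The call in Cont was lost when any 1 of the 6 libraries was left out, with log2 fold changes of 0.85 to 1.02. It was also lost with DESeq2 size factors (0.85), without the filter (0.97), with the compared groups only (0.96) and with the DESeq2 Wald test (0.86). Hoxa9 did not differ from MEFs on day 3 beyond the spread, with 0.10 ± 0.47 in Cont and -0.12 ± 0.48 in +Sm3CA.

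Several members below the test's filter were at 0 reads on day 3, given here as counts. Hoxa13, a factor of the digits and hindgut, had 1, 3 and 4 reads in MEFs, 1 read in the 24 reprogramming libraries and 0 in ESCs. Hoxb2, a hindbrain gene, had 6, 10 and 6 reads in MEFs and 0 in Cont on day 3, at least 7.88-fold lower. On day 3 of +Sm3CA it had 1, 0 and 5 reads, and its highest library there, at 5.22 normalized counts, overlapped the lowest MEF library at 5.19. Both were named after their values were seen. Hoxa3, Hoxb3, Hoxc10 and Hoxd13, among the 12 members with the highest MEF means, were at means of 9.87, 15.1, 12.4 and 9.95 in MEFs and at 2.92, 5.30, 3.78 and 3.03 on day 3 of Cont. Of these, Hoxb3 and Hoxd13 were tested and neither passed (adjusted p = 0.09997 and 0.0842).

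**Figure D3:**
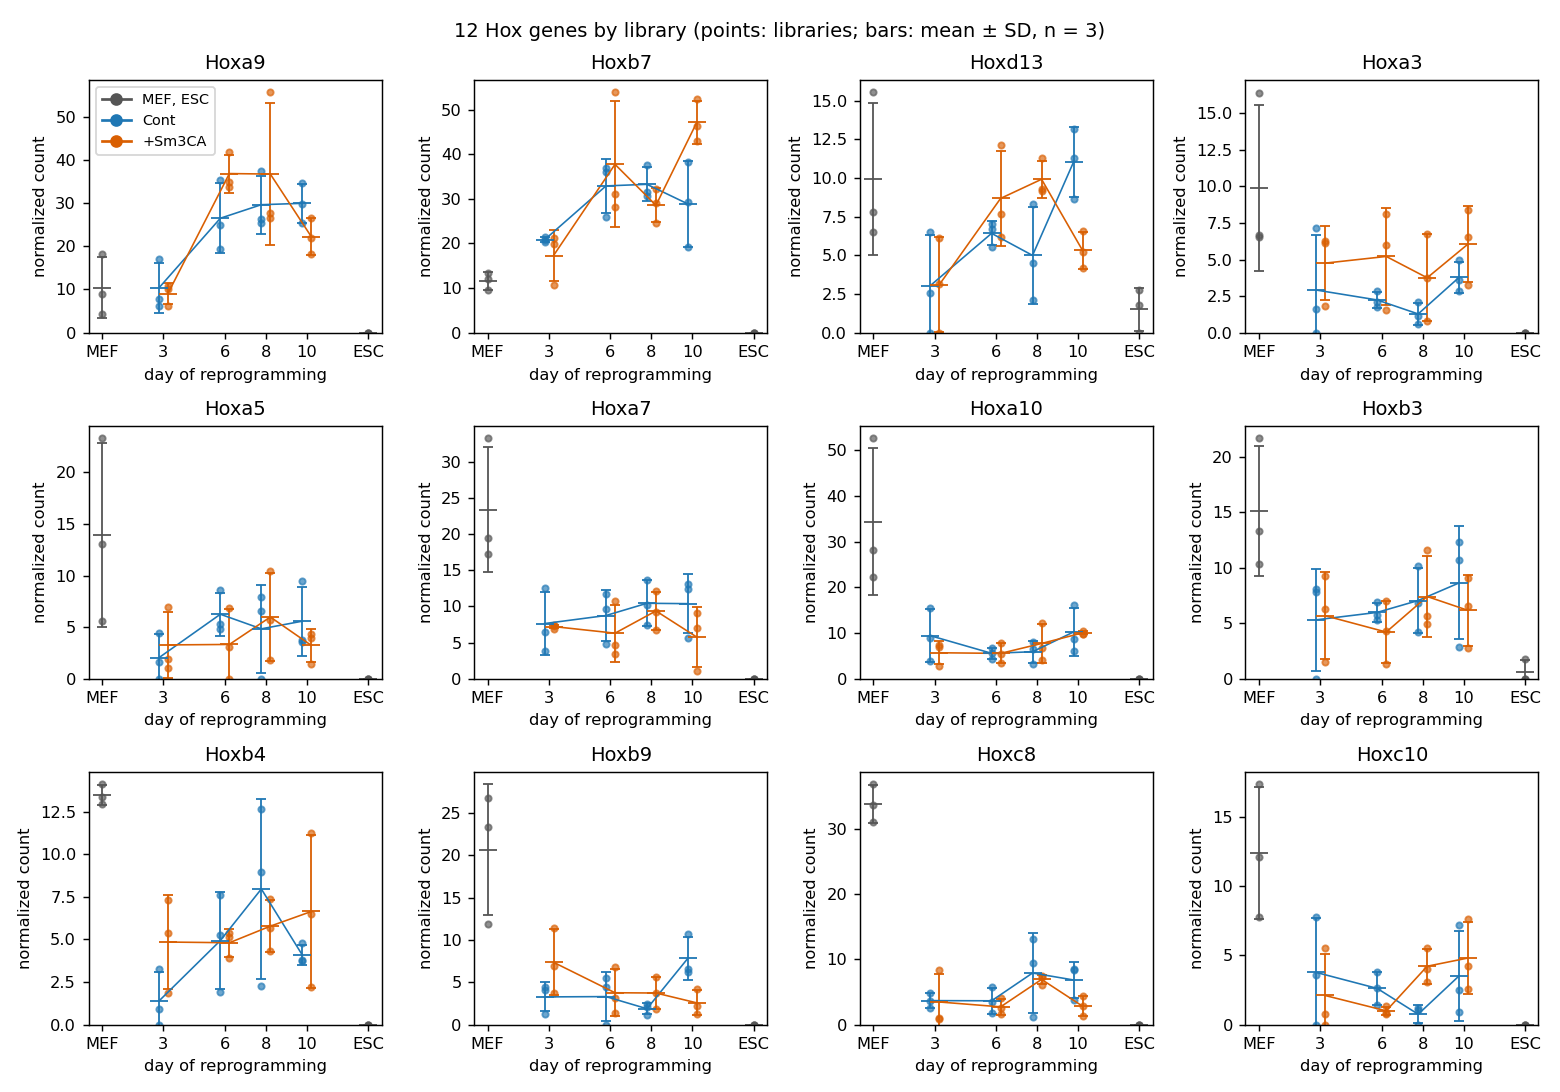
Normalized counts (y axis) of the 12 Hox genes with the highest MEF means by day of reprogramming, with MEFs and ESCs at the ends (x axis); points are libraries, bars the mean ± SD of 3, and the y axes differ in range. Hoxa9 and Hoxb7 lie at 18.2 to 55.8 and 19.1 to 54.0 from day 6 to day 10, whereas Hoxc8 does not exceed 13.1 after the MEF libraries at 31.1 to 36.9.

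The third comparison set day 10 against day 3 within each series. In Cont, 1 of 9 tested members was called higher and 0 lower, beside 13.6% and 11.6% of all 10237 genes. In +Sm3CA, 2 of 9 were called higher and 0 lower, beside 17.6% and 16.2%. The median log2 fold change of the 9 was 0.84 in Cont and 0.73 in +Sm3CA, and that of all genes was 0.09 and 0.05.

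Hoxa9 was called higher in both series. In Cont it was at 6.24, 7.78 and 17.1 on day 3, 35.3, 24.9 and 19.3 on day 6, 37.4, 25.3 and 26.2 on day 8 and 34.6, 29.9 and 25.4 on day 10. In +Sm3CA it was at 10.7, 10.2 and 6.26 on day 3, 41.9, 34.9 and 33.7 on day 6, 27.8, 55.8 and 26.6 on day 8 and 26.6, 21.8 and 18.2 on day 10. From day 6 every library lay above all day 3 libraries and above all MEF libraries, at 8.89, 4.34 and 18.1. The log2 fold change from day 3 to day 10 was 1.45 ± 0.38 in Cont (adjusted p = 0.00365) and 1.26 ± 0.40 in +Sm3CA (adjusted p = 0.0135). The call in +Sm3CA was lost without day 3 replicate 3 (1.07) or day 10 replicate 1 (1.12).

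Hoxb7 was called higher in +Sm3CA. There it was at 28.2, 31.0 and 54.0 on day 6, 32.1, 24.5 and 29.1 on day 8 and 46.3, 52.4 and 43.0 on day 10, with a log2 fold change from day 3 to day 10 of 1.48 ± 0.31 (adjusted p = 0.00025). In Cont it was at 36.0, 25.9 and 36.9 on day 6, 30.6, 31.7 and 37.6 on day 8 and 38.3, 19.1 and 29.2 on day 10, with 0.45 ± 0.31 (adjusted p = 0.303). All libraries of days 6, 8 and 10 in both series were above the 3 MEF libraries. Both genes then had 0 reads in ESCs, at least 24.2- and 23.3-fold below day 10 of Cont and at least 18.0- and 38.2-fold below day 10 of +Sm3CA.

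Hoxd13, the most posterior gene of HoxD and a factor of the digits, was at 7.78, 6.51 and 15.6 in MEFs, 0, 2.59 and 6.50 on day 3 of Cont and 8.64, 13.1 and 11.3 on day 10. Its log2 fold change was 1.76 ± 0.71 (95% interval 0.35 to 3.24, adjusted p = 0.0604), and it was called without Cont day 3 replicate 3 (3.20). Hoxd3 had 0 reads in all 6 day 3 libraries and 2, 0 and 4 on day 10 of Cont. On day 10 of +Sm3CA it had 3, 4 and 2, at least 4.15-fold higher than on day 3 of that series. It was too low for the test and was named after its values were seen. Hoxc8, Hoxa10 and Hoxa7 stayed low, at means of 6.85, 10.2 and 10.4 on day 10 of Cont and 2.83, 10.0 and 5.74 on day 10 of +Sm3CA, against 33.9, 34.4 and 23.4 in MEFs.

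Markers of macrophages moved over the same days. Of the 6 listed, 5 were in the table and 4 were tested. Cd68, Aif1 and Emr1 were called higher on day 10 than on day 3 in both series, beside 13.6% of all genes in Cont and 17.6% in +Sm3CA. The summed level of the 5 was 49.3 to 98.9 in MEFs. In Cont it was 12.2 to 39.2 on day 3 and 80.2 to 258 on day 10. In +Sm3CA it was 15.8 to 41.7 on day 3 and 86.9 to 97.7 on day 10. Ptprc, the pan-leukocyte surface protein, was at 1.23, 16.7 and 26.4 on day 10 of Cont and Csf1r, the macrophage growth factor receptor, at 3.70, 8.36 and 0. Cont day 10 replicate 1 had the lowest sum of these markers and the highest Hoxa9, Hoxb7 and Hox sum of its group. The other way round, replicate 2 on day 8 of +Sm3CA had the highest marker sum of its group, at 171 against 109 and 132. It also had the highest Hoxa9 there, at 55.8 against 27.8 and 26.6. On day 6 of +Sm3CA the marker sum was 27.2 to 58.0, while Hoxa9 was at 33.7 to 41.9. The fibroblast markers, 10 of 10 in the table, summed to 4187 to 5866 in MEFs, 488 to 777 on day 3 of Cont and 725 to 1801 on day 10 of Cont, and to 608 to 834 on day 10 of +Sm3CA. The part of these cells in the Hox levels was not tested. Of markers of other cells, Krt14, a keratin of basal epidermis, was at 0, 0 and 0.864 in MEFs and called higher on day 3 in both series. Tek of endothelium was called higher and Des of muscle lower in both, and each of these genes was the only 1 of its list tested. Tubb3 of neurons was called higher in both, 1 of 4 neural genes tested, with list medians of 2.28 in Cont and 0.11 in +Sm3CA. Of all genes, 22.6% were called higher and 20.9% lower in Cont, and 22.4% and 20.7% in +Sm3CA. No erythroid gene was tested.

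The fourth comparison asked whether Smad3CA changed Hox expression. On each of days 3, 6, 8 and 10, 0 of 9 tested members differed between +Sm3CA and Cont with edgeR, and DESeq2 called 0 as well, though on day 8 it gave no member an adjusted p. At an unadjusted p under 0.05 edgeR gave 0, 0, 0 and 1 members. Over all 10237 genes, 0.0195%, 0.00977%, 0.381% and 0.83% were called higher in +Sm3CA and 0%, 0%, 0.654% and 2.74% lower. The change from day 3 to day 10 differed between the series for 0 of 9 members, with 1 at an unadjusted p under 0.05, beside 0.107% and 0.899% of all genes.

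The smallest unadjusted p among these was that of Hoxb7 on day 10. The +Sm3CA libraries, at 46.3, 52.4 and 43.0, lay above the Cont libraries, at 38.3, 19.1 and 29.2. The log2 fold change was 0.73 ± 0.29 (95% interval 0.13 to 1.33, adjusted p = 0.187), and its exact permutation p was 0.1, the smallest that 3 libraries against 3 allow. The difference between the series in the change from day 3 was 1.02 ± 0.44 (adjusted p = 0.316). Hoxd13 was at 4.21, 6.55 and 5.21 in +Sm3CA and 8.64, 13.1 and 11.3 in Cont on day 10, without overlap, with -1.004 ± 0.68 (95% interval -2.40 to 0.37, adjusted p = 0.506). Hoxa9 had -0.41 ± 0.36 (95% interval -1.13 to 0.31) and Hoxc8 -1.21 ± 0.83 (95% interval -2.92 to 0.44). The intervals of Hoxb7, Hoxd13, Hoxa9 and Hoxc8 reach past a 2-fold difference.

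**Figure D4:**
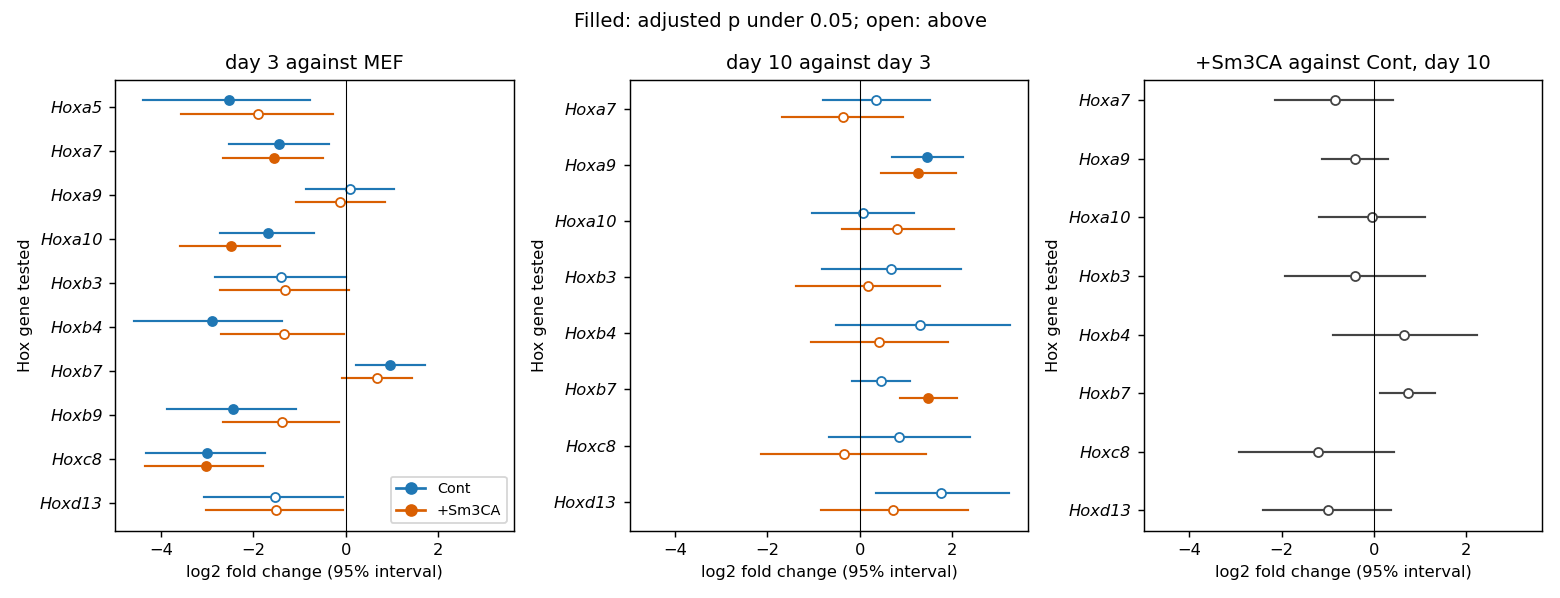
Log2 fold changes with 95% intervals (x axis) of Hox genes tested (y axis) for day 3 against MEFs, day 10 against day 3 and +Sm3CA against Cont on day 10, with Cont in blue and +Sm3CA in orange in the first 2 panels; filled points have an adjusted p under 0.05. Filled points lie left of 0 on day 3 except Hoxb7, right of 0 from day 3 to day 10, and the last panel has none.

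The last comparison set the end of the time course against ESCs. All 11 tested members were called lower in ESCs than on day 10 of Cont, beside 30.3% of all genes called lower and 21.5% higher, and 9 of 11 lower than on day 10 of +Sm3CA, beside 27.2% and 18.6%. Hoxd13, which had 3, 1 and 0 reads in ESCs, was not called against +Sm3CA (adjusted p = 0.145). The summed Hox level on day 10 was 162 to 212 in Cont and 141 to 174 in +Sm3CA, against 6.43 to 10.8 in ESCs. On the same day the pluripotency markers summed to 465 to 1033 in Cont and 1064 to 2261 in +Sm3CA, against 28395 to 53746 in ESCs.

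The partners of Hox proteins followed part of this course. Of the 9 TALE genes, whose products bind DNA together with Hox proteins, 6 were tested on day 3 against MEFs and 3 were called lower in both series, Meis1 and Meis2 among them, beside 20.9% of all genes in Cont and 20.7% in +Sm3CA, with a list median log2 fold change of -1.64 in Cont and -1.79 in +Sm3CA. Meis2 had a log2 fold change of -1.87 ± 0.50 in Cont (adjusted p = 0.00229) and -2.40 ± 0.52 in +Sm3CA (adjusted p = 0.00023). From day 3 to day 10, 0 of 5 TALE genes tested were called in either series by edgeR. Of 10 upstream and ParaHox genes, 6 were in the table and 2 were tested. Kmt2a, a histone methyltransferase that maintains Hox expression, was called lower on day 3 than in MEFs, with -1.18 ± 0.29 in Cont and -0.91 ± 0.28 in +Sm3CA. Kmt2a was called higher on day 10 than on day 3 in Cont, with 0.88 ± 0.28 (adjusted p = 0.018). Its partner Men1 was called higher in +Sm3CA, with 1.26 ± 0.38 (adjusted p = 0.00949). Each was 1 of 2 genes tested, and neither was called in both series. Of all genes, 13.6% were called higher from day 3 to day 10 in Cont and 17.6% in +Sm3CA.

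Other factors of position and the genes around the clusters gave a mixed picture. Of 21 limb and position factors, 6 were tested on day 3 against MEFs, and Prrx1, Msx2 and Prrx2 were called lower in Cont and Prrx1, Prrx2 and Tbx18 in +Sm3CA, beside the same background of 20.9% and 20.7%. Prrx1, a limb mesenchyme factor, was also called lower in +Sm3CA than in Cont on day 10, with -1.13 ± 0.32 (adjusted p = 0.0373). It was 1 of 3 of this list tested there, beside 2.74% of all genes called lower and 0.83% higher. In ESCs against MEFs, 6 of this list were tested, with a list median log2 fold change of -7.40. Prrx1, Msx2, Prrx2, Tbx15 and Tbx18 were called lower in ESCs. Otx2, a factor of the forebrain and of pluripotent cells, was the member called higher. Of all genes, 28.8% were called lower and 23.5% higher in that comparison. Of 12 retinoic acid genes, 9 were tested on day 3, and 3 were called higher in both series, Crabp2 and Stra6 among them, while Crabp1 was called lower, and Rarg was called lower in +Sm3CA, beside 22.6% of all genes called higher in Cont and 22.4% in +Sm3CA. Crabp2, a carrier of retinoic acid to its receptors, had 3.78 ± 0.27 on day 3 of Cont against MEFs (adjusted p = 4.02e-15). On day 10 it was lower in +Sm3CA than in Cont, by -1.52 ± 0.24 (adjusted p = 6.58e-05). Of 8 retinoic acid genes tested between the vectors on day 10, 1 was called lower and 0 higher, beside the same 2.74% and 0.83%. Of 17 genes next to the clusters, 15 were in the table, and on day 3 of both series Snx10 and Tax1bp1 were called higher and Calcoco1 and Hibadh lower, of 13 tested. The shares of all genes called were 22.6% higher and 20.9% lower in Cont and 22.4% and 20.7% in +Sm3CA. RNAs made from the clusters were near the limit: of 11 listed, Hotair and Hoxa11os were in the table and neither was tested.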

How the data were processed

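STRT RNA-seq of 84 wells was used. The deposited values are raw counts of reads for each gene in each well. The submitters' processing notes name Bowtie 0.12.9, DESeq2 1.6.3 and mm10, and the annotation and strand setting of the counting are not given in the sources used here. Wells of a replicate (3, or 2 on day 10) were summed to 30 libraries. No 2 libraries held identical counts. Counts were tested with edgeR 4.0.16 in R 4.3.3 (TMM, filterByExpr, quasi-likelihood test, Benjamini-Hochberg adjustment over all genes tested, threshold 0.05). MEFs and ESCs had a fit of their own, comparisons within the series used the 24 reprogramming libraries, and the others all 30. Normalized counts used size factors of DESeq2 1.42.0. MEFs, ESCs and day 3 were in plate rows A to C, days 6 and 8 in rows D to F, and day 10 in rows G and H. Between these blocks, plate row cannot be told apart from day or cell type. Both vectors of a day shared rows. The tests were run on simulated counts with known changes. How often they miss a change at the low counts of Hox genes is not given here.

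Members and lists were chosen with earlier results of these data known. Values per library are given for the 12 members with the highest MEF mean and for members called between vectors or called higher. Floors are 3 reads, and 95% intervals of ratios are exact binomial and cover counting error only. The design text pairs replicates over days within a series, and the mean correlation of deviations between same-numbered libraries was 0.025 (Cont) and 0.017 (+Sm3CA) for days 3 and 10. Values of some genes are not reported here.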

Additional observations from a re-analysis of the deposited data

Results flagged for a closer look

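2 members moved in opposite directions from day 3 to day 10 in all 3 pairs of libraries with the same replicate number of each series, of 35 with a read in these 12 libraries, beside 1.93% of the 16914 genes with a read. Hoxb9 changed by 4.57 normalized counts on average in Cont and by -4.80 in +Sm3CA. Hoxa2 changed by -2.20 in Cont and by 2.51 in +Sm3CA, and it had at most 4 reads in any of these 12 libraries. Both were below the filter of the test of this difference. Without the filter the edgeR difference between the series was -2.60 ± 1.19 for Hoxb9 (adjusted p = 0.427) and 5.34 ± 2.37 for Hoxa2 (adjusted p = 0.29) on the log2 scale, and neither was called.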

How the results depend on the processing

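Counts of Hox genes called changed with the settings in 7 comparisons, and most of these settings also changed the number tested. Without the filter on low counts, 21 of 31 tested were called in ESCs against MEFs and 5 of 36 on day 3 of +Sm3CA against MEFs. In ESCs against day 10 of Cont and +Sm3CA it was 17 and 14 of 36. The DESeq2 Wald test called 18 of 26, 7 of 27 and 18 of 27 in the first 3 of these. With 2 wells per replicate, 1 of 1 was called in ESCs against MEFs and 4 of 6 on day 3 of Cont against MEFs. In ESCs against day 10 of Cont and +Sm3CA it was 6 and 4 of 6. With all 30 libraries in the fit 11 of 11 were called in ESCs against MEFs. With the compared groups only, 2 of 2 were called in ESCs against day 10 of either series. DESeq2 size factors called 5 of 11 on day 3 of +Sm3CA against MEFs.

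Leaving out each library gave 4 to 6 calls on day 3 of Cont against MEFs (4 without MEF replicate 3), 3 to 5 on day 3 of +Sm3CA (5 without its replicate 1), 1 to 2 from day 3 to day 10 in Cont (2 without day 3 replicate 3) and 1 to 2 in +Sm3CA (1 without day 3 replicate 3 or day 10 replicate 1). Leaving out each library gave 7 to 9 in ESCs against MEFs and 9 to 13 and 7 to 10 in ESCs against day 10 of Cont and +Sm3CA. The difference between series in the log2 change of Hoxd13 from day 3 to day 10, -1.03, ranged from -2.47 (without Cont day 3 replicate 3) to 0.039, the reversed value, without +Sm3CA day 3 replicate 1. The HoxC sum on day 3 of Cont was 19.7 with 2 wells per replicate. The replicate block changed no count of calls, with 7 in ESCs against MEFs and 7 on day 3 of Cont against MEFs. The filter on low counts kept 7 to 11 of 37 members for the test, and 31 to 36 were tested without it.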
